A study of Homo sapiens with 5 samples.

Results

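The DNA replication machinery was examined as 41 genes that encode the proteins which mark replication origins, unwind the DNA, copy it and join the new strands. The genes were taken by name from the known parts of the replisome, though earlier results of these data were known when the list was made. All 41 had a row in the table of 27328 Ensembl genes. The list does not hold *POLD4* and *POLE4*, which were placed among the other replication factors. TF-1 is a human acute myeloid leukemia cell line that grows in the presence of GM-CSF, and the study asked which genes change when it loses *MTSS1*, which encodes a protein that binds actin and the cell membrane. The control group held 2 pools that carried Cas9 with sgCtrl, a guide against the Renilla luciferase gene, and the knockout group held 3 pools, each made with another guide against *MTSS1* (sgMTSS1_1, sgMTSS1_2 and sgMTSS1_3). All cells of both groups had been transduced with a lentiviral Cas9 vector, sorted for its GFP marker, grown as single-cell clones and kept in logarithmic growth without drug. Each pool mixed 4 clones, those of the knockout pools having been chosen for loss of the MTSS1 protein on immunoblots, so a value is an average over few clones of 1 cell line. The pools of a group are called control 1 and 2 and knockout 1, 2 and 3 after the number in their label. The study left out a further control pool and the sgMTSS1_4 pool after a test for outliers on their expression values, and these are not analysed here.

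DNA replication starts at origins, where the origin recognition complex (ORC) together with CDC6 and CDT1 loads the MCM helicase onto DNA before S phase. In S phase, CDC45 and the GINS complex join MCM and turn it into the active helicase, and replication protein A (RPA) coats the single strands that it exposes. DNA polymerase alpha with its primase lays down primers, the clamp loader RFC places the sliding clamp PCNA on them, and polymerases delta and epsilon extend them. FEN1 trims the flaps of Okazaki fragments on the lagging strand, and LIG1 seals the nicks. Many of these genes are transcribed as cells pass from G1 into S phase, under E2F transcription factors, which are held back by the RB family.

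The 3′ mRNA libraries gave between 2849979 and 8854899 counts, with the controls at 2849979 and 3408827 and all 3 knockout pools deeper. Levels are given as CPM, the counts of a gene relative to all counts of its library, scaled by edgeR's TMM factors, and since the libraries hold 1 tag per mRNA from its 3′ end, a count does not grow with transcript length. Of 14391 genes with enough counts to be tested, 600 were called higher in the knockout and 145 lower, at an adjusted p under 0.05 and a log2-fold change beyond 1 in either direction. When the GC content and length of transcripts entered the normalization as offsets, the same call gave 595 higher and 373 lower genes. Without knockout 1 it gave 107 and 4 genes, and without control 1 it gave 917 and 432. A count of 3, taken as the floor of detection, corresponds to between 0.389 and 0.938 CPM in these libraries. *MTSS1* stood at 204 and 87.9 CPM in the controls and at 104, 139 and 49.9 CPM in the knockout pools, so the groups overlapped. Its log2-fold change was -0.58 ± 0.47 (SE, edgeR adjusted p = 0.494), and 0.16 without control 1. The guides sgMTSS1_1 and sgMTSS1_2 target the first exon, whereas the tags come from the 3′ end, so this level does not check the knockout. All 12 TF-1 and progenitor markers, among them *CD34*, *KIT* and the receptors for GM-CSF, were detected in every library, with a summed level of 1850 to 1981 CPM in the controls and 2161 to 2660 CPM in the knockout pools. *TFRC* gave the largest part of that sum, at 611 and 638 CPM in the controls and 1538, 750 and 1216 CPM in the knockout pools. Every knockout pool lay above both controls in 4 of these markers (22.2% of all genes tested did). In 2, *GATA1* and *MYB*, every knockout pool lay below (19.2% did), and the other 6 overlapped. Of 10 markers of other cell types, 8 had a row, with summed levels of 129 to 153 CPM and 205 to 244 CPM, nearly all of it from *PECAM1*, while *EPCAM*, *COL1A1*, *COL1A2* and *ALB*, which mark epithelium, fibroblasts and liver, had at most 4 counts in any library. The part of these shifts in the results was not tested.

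Promoters are shown first for the 4 members that rose (*POLD2*, *FEN1*, *RPA1* and *PRIM1*), then for 3 members with lower levels in every knockout pool, of which *GINS1* and *ORC3* hold an E2F word and *ORC6* does not, and for *GINS2*, a member with higher levels in every knockout pool that holds one. The last 4 were picked for having or lacking the word, so they illustrate it and are no evidence of a link with direction. The RefSeq promoter table on GRCh38.p14 gave 300 bases for 35 of the 41 members (all but *MCM4*, *MCM5*, *GINS4*, *RPA2*, *RPA3* and *POLD3*), 250 before and 50 from the RefSeq gene start on, which is position 1 with no position 0. Capitals mark 3 kinds of word, each searched on both strands: TTTCCCGC, TTTGGCGC, TTTCGCGC or TTTGCCGC (E2F), CCAAT (bound by NF-Y) and CACGTG (E-box). *POLD2* is at chr7:44123499-44123798 on the minus strand, *FEN1* at chr11:61792661-61792960 on the plus strand, *RPA1* at chr17:1829755-1830054 on the plus strand, *PRIM1* at chr12:56752274-56752573 on the minus strand, *GINS1* at chr20:25407423-25407722 on the plus strand, *ORC3* at chr6:87589885-87590184 on the plus strand, *ORC6* at chr16:46689409-46689708 on the plus strand and *GINS2* at chr16:85688905-85689204 on the minus strand, and all are printed along the strand of the gene. The RefSeq start of *GINS1* lies inside the longer gene that GENCODE gives.
POLD2: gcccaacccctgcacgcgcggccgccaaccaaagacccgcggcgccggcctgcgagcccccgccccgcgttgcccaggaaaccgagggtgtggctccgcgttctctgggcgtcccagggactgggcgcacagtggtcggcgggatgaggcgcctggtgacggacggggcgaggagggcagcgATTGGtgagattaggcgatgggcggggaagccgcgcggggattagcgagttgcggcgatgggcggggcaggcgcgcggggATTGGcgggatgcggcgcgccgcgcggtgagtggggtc
FEN1: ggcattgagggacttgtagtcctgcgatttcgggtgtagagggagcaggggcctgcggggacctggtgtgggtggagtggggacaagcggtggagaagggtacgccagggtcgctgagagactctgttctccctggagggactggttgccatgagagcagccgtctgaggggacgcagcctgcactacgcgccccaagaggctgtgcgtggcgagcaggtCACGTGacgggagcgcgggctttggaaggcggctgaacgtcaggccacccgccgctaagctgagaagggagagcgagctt
RPA1: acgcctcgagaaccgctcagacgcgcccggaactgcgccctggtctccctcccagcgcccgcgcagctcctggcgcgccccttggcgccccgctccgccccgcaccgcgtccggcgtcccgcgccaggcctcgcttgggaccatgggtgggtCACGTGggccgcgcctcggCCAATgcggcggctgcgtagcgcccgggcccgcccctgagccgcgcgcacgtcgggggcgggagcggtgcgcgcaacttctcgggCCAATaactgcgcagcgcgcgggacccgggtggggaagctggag
PRIM1: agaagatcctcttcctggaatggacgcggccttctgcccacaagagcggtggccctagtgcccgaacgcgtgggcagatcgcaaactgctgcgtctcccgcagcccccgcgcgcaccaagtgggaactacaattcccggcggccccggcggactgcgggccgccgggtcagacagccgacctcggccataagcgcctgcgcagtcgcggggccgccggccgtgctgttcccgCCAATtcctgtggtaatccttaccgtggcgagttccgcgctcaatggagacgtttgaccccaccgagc
GINS1: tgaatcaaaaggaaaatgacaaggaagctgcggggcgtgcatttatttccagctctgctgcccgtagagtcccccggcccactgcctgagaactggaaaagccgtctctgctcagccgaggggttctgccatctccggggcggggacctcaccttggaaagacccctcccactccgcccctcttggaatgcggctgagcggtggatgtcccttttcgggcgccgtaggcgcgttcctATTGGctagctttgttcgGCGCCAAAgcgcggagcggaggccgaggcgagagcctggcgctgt
ORC3: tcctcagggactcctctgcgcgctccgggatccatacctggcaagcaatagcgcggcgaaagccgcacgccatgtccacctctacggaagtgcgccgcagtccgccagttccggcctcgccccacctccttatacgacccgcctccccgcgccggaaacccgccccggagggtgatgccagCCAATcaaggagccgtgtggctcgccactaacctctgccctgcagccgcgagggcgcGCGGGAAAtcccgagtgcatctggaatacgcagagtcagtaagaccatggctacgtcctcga
ORC6: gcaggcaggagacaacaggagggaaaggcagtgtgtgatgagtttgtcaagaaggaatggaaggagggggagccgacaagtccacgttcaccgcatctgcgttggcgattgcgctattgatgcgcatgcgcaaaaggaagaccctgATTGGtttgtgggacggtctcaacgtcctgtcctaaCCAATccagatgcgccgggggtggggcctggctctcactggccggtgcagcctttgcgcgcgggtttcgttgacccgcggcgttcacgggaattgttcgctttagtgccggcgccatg
GINS2: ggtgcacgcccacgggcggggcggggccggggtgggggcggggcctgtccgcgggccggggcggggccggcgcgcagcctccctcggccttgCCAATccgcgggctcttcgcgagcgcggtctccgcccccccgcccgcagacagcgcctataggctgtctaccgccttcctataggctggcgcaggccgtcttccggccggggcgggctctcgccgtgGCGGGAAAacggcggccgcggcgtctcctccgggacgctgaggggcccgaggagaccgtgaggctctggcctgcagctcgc

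An E2F word was found in 17 of the 35 member promoters (48.6%), compared with 529 of 9688 promoters of tested genes (5.46%) and 1164 of all 35116 promoters (3.31%). CCAAT was found in 20 of 35 (57.1%), against 37.7% and 34.6%. The word TTTGAA, the core of the CHR element of many mitotic genes, was found in none of the 35 member promoters, against 10.1% of promoters of tested genes and 15.2% of all. CACGTG, a word searched only after the sequences had been seen, was found in 4 of 35 (11.4%), against 10.3% and 7.26%, and those 4 were *MCM2*, *MCM7*, *FEN1* and *RPA1*. No word of one kind contains a word of another, but TTTGGCGC and TTTCGCGC overlapped on opposite strands in the *MCM6* promoter, which held 4 E2F words at only 2 places, and TTTCGCGC overlapped itself on the strands of the *MCM2* promoter. None of the 4 promoters of the members that rose held one of the 4 E2F words. *FEN1* held CACGTG at position -30, *RPA1* held it at -98 with CCAAT at -79 and 7, *POLD2* held CCAAT on the minus strand at -68 and 13, and *PRIM1* held CCAAT at -18. *GINS1* had TTTGGCGC on the minus strand at position 6, *ORC3* had TTTCCCGC on the minus strand at -12, and *GINS2* had TTTCCCGC on the minus strand at -31, while *ORC6* held CCAAT at -104 on the minus strand and at -68. Among the members with every knockout pool above the controls, 2 of 9 promoters held an E2F word, compared with 4 of 6 for those with every knockout pool below and 10 of 19 for those that overlapped. *GINS4*, *RPA2* and *RPA3* of the first set and *MCM4* and *MCM5* of the second are missing from these counts, and the difference was not tested. These matches describe letters in a window and were not tested for binding. Only exact copies of the 4 E2F words were counted, so other forms of an E2F site are missed.

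The replication genes did not move as a block. Of the 40 members tested, 4 rose, namely *FEN1*, *POLD2*, *PRIM1* and *RPA1*, while 4.17% of all genes tested rose, and 0 fell, while 1.01% of all genes tested fell (quasi-likelihood test of edgeR, adjusted after Benjamini and Hochberg over all genes tested). Leaving out 1 pool at a time gave 6 higher members without control 1, 3 without control 2, 1 without knockout 1, and 2 each without knockout 2 or 3. At an unadjusted p under 0.05 in the same test, 10 members were higher and 4 lower, where 14.1% and 9.23% of all genes were. Every knockout pool lay above both control pools in 12 members (30.0%, against 22.2% of all genes) and below both in 8 members (20.0%, against 19.2%), and the groups overlapped in the other 20. Log2-fold changes ran from -0.99 for *MCM5* to 2.73 for *FEN1*, with 20 members above 0 and 20 below, and their median was 0.00 where that of all genes tested was -0.03. The summed level of all 41 members was 2946 and 3061 CPM in the controls and 3336, 3125 and 3051 CPM in the knockout pools, so these sums overlapped. In bulk RNA, fewer cells in S phase and less mRNA per cell cannot be told apart.

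**Figure D1:**
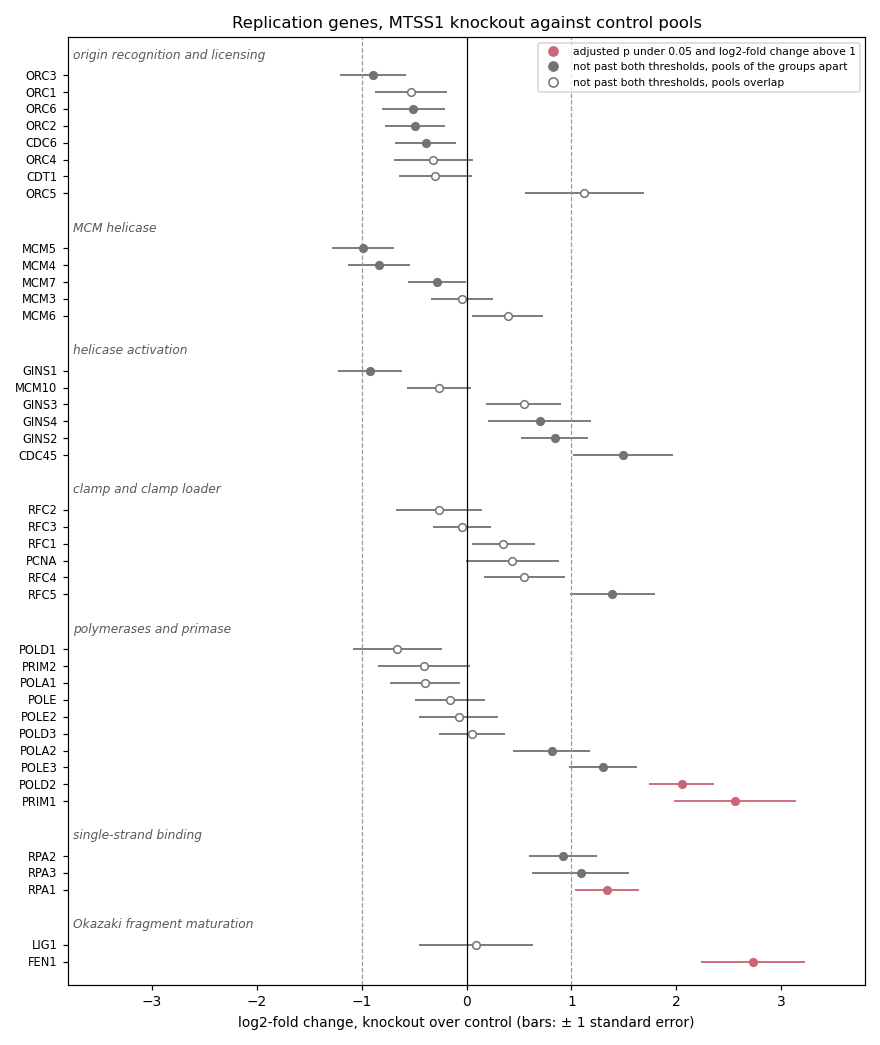
Log2-fold change (x axis, knockout over control) of the 40 tested replication genes (y axis), grouped by role, with bars of 1 standard error and dashed lines at -1 and 1. The 4 genes in red, FEN1, PRIM1, POLD2 and RPA1, passed both thresholds, while filled gray points are the other members whose pools were apart and open points those whose pools overlapped.

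The origin and licensing genes had a log2-fold change below 0 in 7 of 8 members, without any passing the test. Of these 8, 4 (*ORC2*, *ORC3*, *ORC6* and *CDC6*) had every knockout pool below both controls, where 19.2% of all genes tested did, 0 had every pool above, where 22.2% did, and the median log2-fold change was -0.44. Their summed level was 467 and 482 CPM in the controls and 363, 368 and 350 CPM in the knockout pools, and the groups were apart in the same direction when scaled by library size alone or by DESeq2 size factors. *ORC3*, a core subunit of ORC, stood at 68.2 and 49.2 CPM in the controls and at 38.1, 32.1 and 24.4 CPM in the knockout pools. All 3 knockout pools were thus lower than the lower control, and the log2-fold change was -0.89 ± 0.32 (SE, edgeR adjusted p = 0.132).

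*ORC2*, which together with *ORC3* forms part of the ORC core, had 57.5 and 51.0 CPM in the controls and 43.5, 38.1 and 34.1 CPM in the knockout pools, a narrow separation with a log2-fold change of -0.49 ± 0.29 (SE, edgeR adjusted p = 0.336). *ORC6*, the smallest subunit, had 45.0 and 67.1 CPM against 41.2, 40.1 and 36.9 CPM, and the log2-fold change was -0.51 ± 0.30 (SE, edgeR adjusted p = 0.344). For *CDC6*, the ATPase that helps ORC to load MCM, the values were 88.2 and 98.3 CPM against 86.5, 66.4 and 60.5 CPM. Knockout 1 was close to the lower control for *CDC6*, whose log2-fold change was -0.39 ± 0.29 (SE, edgeR adjusted p = 0.462).

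*ORC5* was the one member of this group with a positive difference, and the controls disagreed on it. Its levels were 13.1 and 2.98 CPM (42 and 10 counts) in the controls and 23.0, 12.3 and 17.1 CPM in the knockout pools. The groups overlapped through control 1, and the log2-fold change was 1.12 ± 0.57 (SE, edgeR adjusted p = 0.271). Without control 1, which leaves a single control pool whose spread is assumed to be like that of the others, it was 2.56 and passed the test (edgeR adjusted p = 0.0315), and without control 2 it was 0.44. The other members overlapped between groups: *ORC1*, the ATPase subunit of ORC, had 39.1 and 21.8 CPM against 18.3 to 23.1 CPM, *ORC4* had 47.2 and 22.6 CPM against 22.0 to 34.8 CPM, and *CDT1*, which brings MCM to ORC, had 109 and 169 CPM against 77.8 to 133 CPM. The 3′ end of *ORC4* overlaps an exon of *ACVR2A* on the opposite strand, whose part in the *ORC4* value was not tested.

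The MCM helicase genes divided between members with lower levels and members whose groups overlapped. *MCM4* and *MCM5* had the lowest knockout values relative to the controls, and *MCM7* was lower by little, while *MCM3* and *MCM6* overlapped. None of the 5 tested members passed the test. Every knockout pool lay below both controls in 3 of them (19.2% of all genes tested did) and above in 0 (22.2% did). *MCM5*, a subunit at the gate through which the ring opens, had 123 and 139 CPM in the controls and 51.5, 79.1 and 67.0 CPM in the knockout pools. Every knockout pool was well below both controls, and the log2-fold change was -0.99 ± 0.30 (SE, edgeR adjusted p = 0.0845). With the offsets for GC content and length, it was -1.12 and passed the test (edgeR adjusted p = 0.0345), and over the other alternatives the adjusted p was up to 0.269.

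*MCM4* had 375 and 380 CPM in the controls and 168, 239 and 227 CPM in the knockout pools. The controls were nearly equal, the 3 knockout pools lay apart from them, and the log2-fold change was -0.84 ± 0.30 (SE, edgeR adjusted p = 0.132). *MCM7* had 190 and 201 CPM against 171, 149 and 164 CPM, with a log2-fold change of -0.28 ± 0.28 (SE, edgeR adjusted p = 0.586), which is within its error. *MCM3* had 483 and 445 CPM against 427, 470 and 454 CPM, so that its groups overlapped. *MCM6* had 117 and 72.7 CPM against 154, 120 and 99.3 CPM, and these groups overlapped as well.

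The ratio of *MCM3* to *MCM5* within a library was 3.93 and 3.20 in the controls and 8.29, 5.95 and 6.78 in the knockout pools. Likewise, the ratio of *MCM3* to *MCM4* was 1.29 and 1.17 against 1.97 to 2.53. Both ratios are free of the scaling between libraries, and in both the groups did not overlap. *MCM4* and *MCM5* were already lower in every knockout pool, so these ratios restate their levels and are no separate evidence. *MCM2*, the remaining subunit of the ring, had only 3 and 2 counts in the controls and 4, 1 and 5 counts in the knockout pools. It was too low to be tested, and no fold is given. In GENCODE release 44, the 3′ end of *MCM2* overlaps a long noncoding RNA on the opposite strand, and whether the counting used strand is not given in the sources used here. The sum of the MCM genes was 1289 and 1238 CPM in the controls and 973, 1057 and 1012 CPM in the knockout pools, lower in all 3 and under all 3 scalings.

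**Figure D2:**
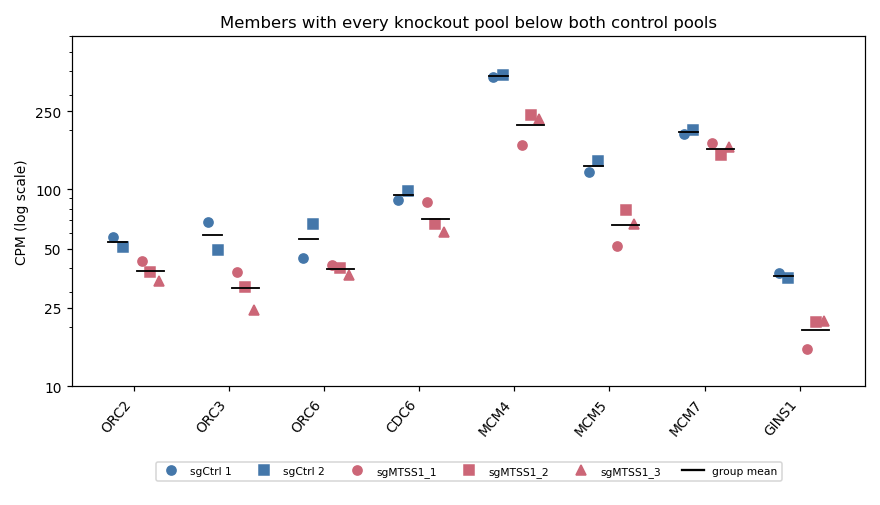
Level in CPM (y axis, log scale) of the 8 members (x axis) in which every knockout pool lay below both control pools, with a symbol for each library (blue, control; red, knockout) and a line at each group mean. MCM4 and GINS1 show controls close to each other, and none of the 8 passed the adjusted test.

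Among the genes that activate the helicase, the GINS subunits went separate ways. *GINS1* was lower and *GINS2* and *GINS4* were higher in every knockout pool than in both controls, *CDC45* was higher too, and 0 of the 6 members passed the adjusted test. Thus 3 of the 6 lay above in every knockout pool, where 22.2% of all genes tested did, and 1 below, where 19.2% did. *CDC45*, the helicase cofactor, had 6.25 and 3.28 CPM (20 and 11 counts) in the controls and 18.2, 9.03 and 12.9 CPM in the knockout pools. The knockout pools were all above the higher control, and the log2-fold change was 1.49 ± 0.48 (SE, edgeR adjusted p = 0.103). Without the filter on low counts, the adjusted p was 0.0454.

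*GINS1* had 37.5 and 35.5 CPM in the controls and 15.4, 21.1 and 21.4 CPM in the knockout pools. Its controls were close together and its knockout pools well below them, with a log2-fold change of -0.92 ± 0.31 (SE, edgeR adjusted p = 0.110). *GINS2* had 19.1 and 19.4 CPM in the controls and 42.0, 28.0 and 33.1 CPM in the knockout pools. Here the 3 knockout pools were higher, and the log2-fold change was 0.84 ± 0.32 (SE, edgeR adjusted p = 0.158). The 3′ end of *GINS2* overlaps an exon of *GSE1* on the opposite strand, whose part in the *GINS2* value was not tested.

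The ratio of *GINS2* to *GINS1*, whose products sit in the same tetramer, was 0.508 and 0.546 in the controls and 2.72, 1.32 and 1.54 in the knockout pools, so *GINS1* gave more tags in both controls and *GINS2* in all 3 knockout pools. *GINS4* had few counts, at 3.13 and 2.68 CPM (10 and 9 counts) against 5.58, 4.69 and 3.83 CPM (43, 26 and 22 counts), with a log2-fold change of 0.70 ± 0.49 (SE, edgeR adjusted p = 0.430). *GINS3* (12.5 and 14.3 CPM against 14.1 to 22.6 CPM) overlapped between groups. *MCM10*, which helps to start unwinding, also overlapped, with 136 and 88.5 CPM in the controls against 86.6 to 103 CPM in the knockout pools.

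The genes of the single-strand binding complex RPA were higher in all 3 subunits. *RPA1* rose, and *RPA2* and *RPA3* lay above the controls in every knockout pool without passing the adjusted test. Of all genes tested, 4.17% rose and 22.2% had every knockout pool above both controls. *RPA1*, the large subunit that holds most of the DNA-binding surface, lies on chromosome 17 at 1829702 to 1900082 (GRCh38) on the plus strand. It had 40.6 and 29.5 CPM in the controls and 93.3, 82.5 and 90.8 CPM in the knockout pools. The knockout pools were close to each other and far above both controls, with a log2-fold change of 1.34 ± 0.30 (SE, edgeR adjusted p = 0.0383). The call was lost with library size alone (1.19, edgeR adjusted p = 0.0708) and without control 2, knockout 1, knockout 2 or knockout 3 (edgeR adjusted p = 0.0748, 0.104, 0.0783 and 0.114).

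*RPA2*, the subunit that is phosphorylated in the cell cycle and after DNA damage, had 60.7 and 50.7 CPM in the controls and 138, 89.0 and 88.6 CPM in the knockout pools. Knockout 1 was the highest and the other two were alike, and the log2-fold change was 0.92 ± 0.33 (SE, edgeR adjusted p = 0.131). *RPA3*, the small subunit, had 14.7 and 10.1 CPM against 39.7, 14.8 and 24.4 CPM. Knockout 2 barely exceeded control 1 for *RPA3*, and the log2-fold change was 1.09 ± 0.46 (SE, edgeR adjusted p = 0.192). That order depended on the TMM scaling. By library size alone, knockout 2 (82 of 5442639 counts) lay below control 1 (47 of 2849979 counts). The summed RPA level was 116 and 90.3 CPM in the controls and 271, 186 and 204 CPM in the knockout pools, above both controls under all 3 scalings. The ratio of *RPA1* to *RPA2* was 0.670 and 0.582 in the controls and 0.675, 0.927 and 1.03 in the knockout pools, with knockout 1 close to control 1.

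Within the polymerase and primase complexes, some genes rose while their partners overlapped between groups. *POLD2* and *PRIM1* rose, *POLE3* and *POLA2* lay above the controls in every knockout pool without passing the test, and the other 6 of the 10 members, among them the catalytic subunits of all 3 polymerases, overlapped between groups. Among all genes tested, 4.17% rose, 22.2% had every knockout pool above both controls and 19.2% had every one below. *POLD2*, the accessory subunit of polymerase delta that ties its other subunits together, lies on chromosome 7 at 44114631 to 44124358 (GRCh38) on the minus strand. It had 18.8 and 19.1 CPM (60 and 64 counts) in the controls and 72.0, 73.3 and 90.0 CPM (555, 406 and 517 counts) in the knockout pools. The controls were almost identical, the knockout pools were far above them, and the log2-fold change was 2.05 ± 0.31 (SE, edgeR adjusted p = 0.0115), a 4.14-fold rise. *POLD2* passed the test in all 15 alternatives that refitted or left out data, with log2-fold changes of 1.75 to 2.20. The margin was narrow without knockout 3, where the edgeR adjusted p was 0.0477. GENCODE release 44 lists 1 pseudogene named after *POLD2*. Among the other members, it lists 1 each for *FEN1*, *RFC5*, *RFC3* and *ORC1*, 2 for *RPA3* and 3 each for *RPA2* and *PCNA*. Reads with more than 1 place were removed by the authors.

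*POLD1*, the catalytic subunit of polymerase delta, had 23.8 and 59.3 CPM in the controls and 18.4, 32.5 and 28.2 CPM in the knockout pools, and *POLD3* had 57.2 and 51.6 CPM against 72.6, 50.9 and 45.4 CPM. Both overlapped. The ratio of *POLD2* to *POLD1* was 0.789 and 0.322 in the controls and 3.91, 2.26 and 3.19 in the knockout pools, so *POLD2* gave fewer tags than *POLD1* in both controls and more in every knockout pool.

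*PRIM1*, the catalytic subunit of primase, lies on chromosome 12 at 56730438 to 56752374 (GRCh38) on the minus strand. It had 8.44 and 3.28 CPM (27 and 11 counts) in the controls and 56.9, 24.7 and 21.4 CPM (439, 137 and 123 counts) in the knockout pools. Knockout 1 was the highest, the other two knockout pools were alike and well above both controls, and the log2-fold change was 2.56 ± 0.58 (SE, edgeR adjusted p = 0.0385), a 5.88-fold rise on few control counts. The call was lost in limma-voom (adjusted p = 0.0515) and without control 2, knockout 1, knockout 2 or knockout 3 (edgeR adjusted p = 0.0945, 0.110, 0.0580 and 0.0530), with log2-fold changes of 1.97 to 2.86 in these 4.

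The last exon of *PRIM1* overlaps *NACA*, its neighbor on the same strand, at the 3′ end from which the tags come. *NACA*, a chaperone of nascent proteins, rose as well, from 203 and 141 CPM to 715, 482 and 643 CPM (log2-fold change 1.83 ± 0.36 SE, edgeR adjusted p = 0.0234), and the part of *NACA* in the *PRIM1* value was not tested. *PRIM2*, the other primase subunit, had 7.82 and 10.4 CPM in the controls and 9.21, 4.33 and 6.96 CPM in the knockout pools, which overlapped. The ratio of *PRIM1* to *PRIM2* was 1.08 and 0.314 in the controls and 6.18, 5.71 and 3.08 in the knockout pools.

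*POLE3*, a small histone-fold subunit of polymerase epsilon that also belongs to the CHRAC chromatin remodeler, had 95.4 and 147 CPM in the controls and 325, 263 and 308 CPM in the knockout pools. All knockout pools were far above the higher control, the log2-fold change was 1.30 ± 0.33 (SE, edgeR adjusted p = 0.0517), and it passed the test in 5 of the 15 alternatives, DESeq2 (adjusted p = 0.0039) and limma-voom (adjusted p = 0.0418) included. *POLE*, the catalytic subunit, overlapped with 15.3 and 18.5 CPM against 12.5, 17.0 and 16.0 CPM, and so did *POLE2*, with 19.1 and 13.4 CPM against 18.2, 17.3 and 10.6 CPM. The ratio of *POLE3* to *POLE* was 6.22 and 7.95 in the controls and 26.1, 15.5 and 19.2 in the knockout pools.

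*POLA2*, the regulatory subunit of polymerase alpha, had 10.6 and 6.85 CPM against 14.8, 16.6 and 14.6 CPM, a log2-fold change of 0.81 ± 0.37 (SE, edgeR adjusted p = 0.221). *POLA1*, its catalytic partner, had 84.7 and 160 CPM in the controls and 96.6, 98.9 and 83.9 CPM in the knockout pools. The controls of *POLA1* differed more from each other than the knockout pools did. Summed over the 10 genes, the level was 341 and 490 CPM in the controls and 696, 599 and 625 CPM in the knockout pools. *POLE3* contributed the most to that sum in every knockout pool, and without it the sum was 246 and 343 CPM in the controls and 371, 336 and 317 CPM in the knockout pools, which overlapped.

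**Figure D3:**
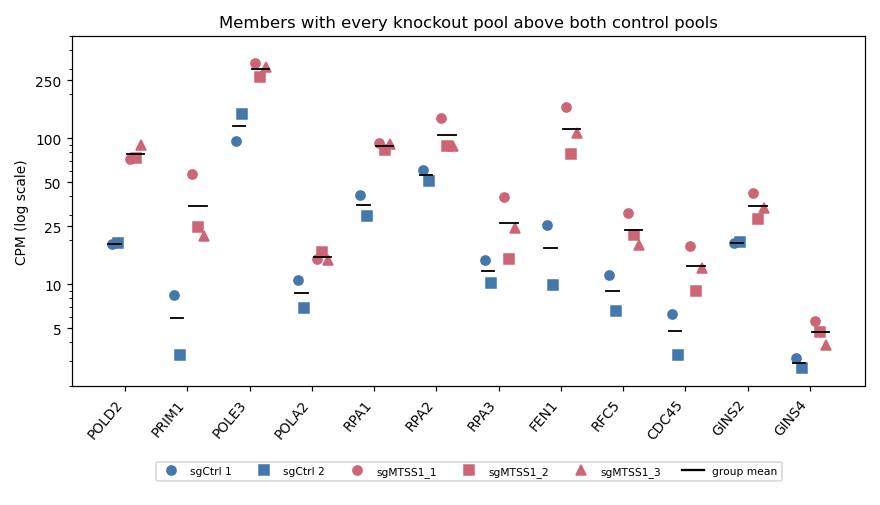
Level in CPM (y axis, log scale) of the 12 members (x axis) in which every knockout pool lay above both control pools, with a symbol for each library (blue, control; red, knockout) and a line at each group mean. POLD2 shows controls close to each other at 18.8 and 19.1 CPM, while control 2 was the lower one for FEN1 and PRIM1.

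*FEN1*, the flap endonuclease of Okazaki fragment maturation, rose the most of all members. It lies on chromosome 11 at 61792911 to 61797238 (GRCh38) on the plus strand, and had 25.3 and 9.83 CPM (81 and 33 counts) in the controls and 163, 78.4 and 109 CPM (1253, 434 and 624 counts) in the knockout pools. Each knockout pool was above both controls, although the controls differed from each other, and the log2-fold change was 2.73 ± 0.49 (SE, edgeR adjusted p = 0.0192), a 6.63-fold rise. *FEN1* passed the test in 14 of the 15 alternatives, the exception being the one without knockout 1 (2.40, edgeR adjusted p = 0.0746), and its log2-fold change ran from 2.23 without control 2 to 3.58 without control 1.

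*FADS2*, which encodes a fatty acid desaturase, runs over most of *FEN1* on the same strand, its 3′ end included, though no exon of *FADS2* lies in the last 500 bases of *FEN1*. *FADS2* had 85.7 and 38.7 CPM in the controls and 161, 107 and 135 CPM in the knockout pools (log2-fold change 1.11 ± 0.39 SE, edgeR adjusted p = 0.128). *LIG1*, the ligase that acts after *FEN1*, had 45.0 and 204 CPM in the controls and 94.3, 176 and 128 CPM in the knockout pools. The controls lay on both sides of all knockout pools for *LIG1*, and its log2-fold change went from -0.62 without control 1 to 1.59 without control 2, so no direction can be given. The ratio of *FEN1* to *PCNA* was 0.262 and 0.232 in the controls and 1.18, 1.21 and 1.38 in the knockout pools, and the groups were apart. The ratio of *FEN1* to *LIG1* was 0.563 and 0.0481 in the controls and 1.72, 0.445 and 0.851 in the knockout pools, which overlapped.

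For the sliding clamp and its loader, 1 of 6 genes lay above the controls in every knockout pool (22.2% of all genes tested did) and 0 below (19.2%). *RFC5*, a small subunit of the clamp loader, had 11.6 and 6.56 CPM in the controls and 30.6, 21.8 and 18.6 CPM in the knockout pools. All knockout pools were above both controls, and the log2-fold change was 1.39 ± 0.41 (SE, edgeR adjusted p = 0.0801). It passed the test in DESeq2 (adjusted p = 0.0372), without the filter on low counts (edgeR adjusted p = 0.0307) and without control 1 (edgeR adjusted p = 0.0432).

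*PCNA*, the clamp itself, had 96.6 and 42.3 CPM in the controls and 138, 65.0 and 78.5 CPM in the knockout pools. Knockout 2 and 3 were between the controls, so the groups overlapped. *RFC1*, the large subunit of the loader, had 138 and 108 CPM against 181, 153 and 136 CPM, *RFC2* had 10.9 and 24.7 CPM against 13.4, 18.4 and 12.9 CPM, and *RFC3* had 164 and 139 CPM against 153, 149 and 140 CPM. *RFC4* had 26.0 and 62.9 CPM against 63.6, 72.8 and 59.2 CPM. All of these overlapped, for *RFC1* and *RFC4* through 1 control only. The ratio of *RFC5* to *RFC1* was 0.0839 and 0.0609 in the controls and 0.169, 0.143 and 0.137 in the knockout pools.

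**Figure D4:**
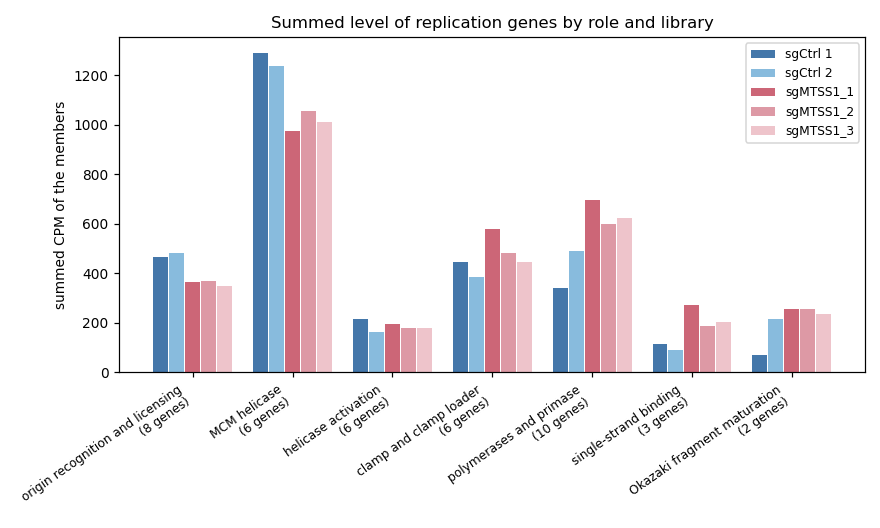
Summed CPM (y axis, from 0) of the replication genes of each role (x axis, with the number of genes) in each of the 5 libraries. The sums of origin and MCM genes were lower, and those of polymerase, RPA and Okazaki genes higher, in all 3 knockout pools than in both controls, the polymerase sum only with POLE3 and the Okazaki sum only with FEN1, and the bars of the other 2 roles overlap.

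The summed levels of the roles lay in opposite directions. The origin and MCM sums were lower in every knockout pool, the polymerase, RPA and Okazaki sums were higher, and those of helicase activation and of the clamp and its loader overlapped between groups, each the same under TMM, library size alone and DESeq2 size factors. No test was made of the roles. Each sum was also taken without 1 member at a time, an alternative chosen after the data had been seen. The origin, MCM and RPA sums stayed apart without any 1 member, whereas the polymerase sum overlapped without *POLE3*, the Okazaki sum without *FEN1*, and the sum of the clamp and its loader was above the controls without *PCNA* or without *RFC3*. The Okazaki sum rests on *FEN1* and *LIG1* alone, at 70.4 and 214 CPM in the controls and 257, 254 and 236 CPM in the knockout pools, and most of the gap between its controls came from *LIG1*. The members with every knockout pool above the controls had shorter transcripts, with a median of 2062 bases (1423 to 4847) and a median GC content of 47.4%, against 3384.5 bases (1615 to 4564) and 45.3% for the 8 below and 3094.5 bases and 43.6% for the 20 that overlapped. The part of length in these differences was not tested. The level of the members above was lower as well, with a median over members of 25.6 CPM, compared with 63.0 CPM for those below.

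**Figure D5:**
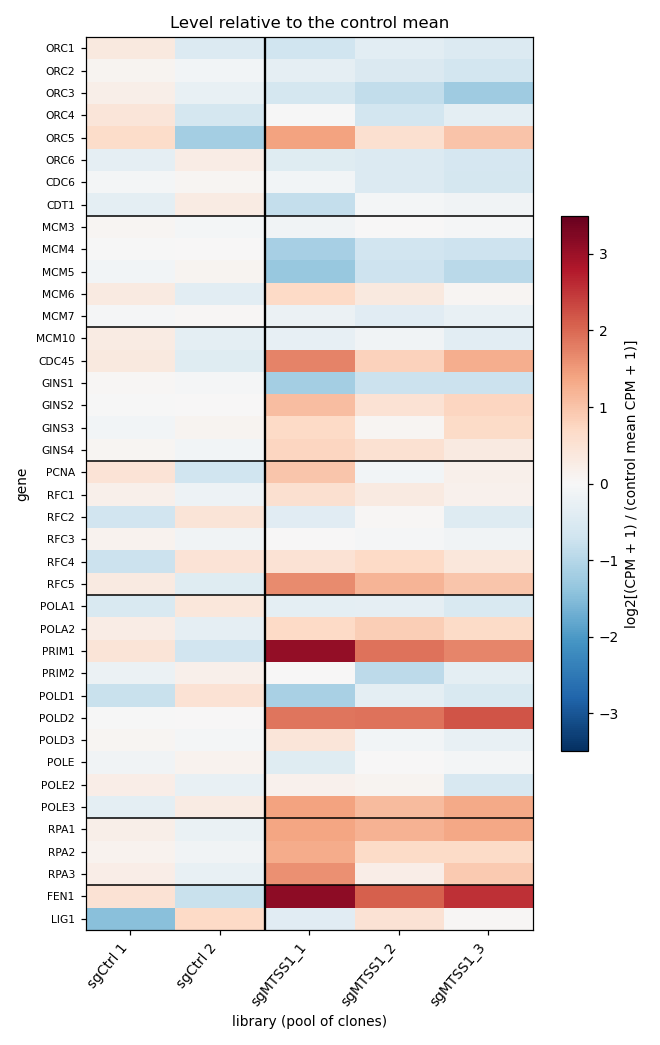
Level of the 40 tested members (y axis, in the order of their roles, separated by lines) in each library (x axis) relative to the control mean, as log2 of (CPM + 1) over (control mean + 1), red above and blue below. FEN1, PRIM1, POLD2 and the RPA genes are red in all 3 knockout pools, MCM4, MCM5, GINS1 and ORC3 are blue, and LIG1, ORC5 and PCNA differ between the controls.

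The genes around the replisome were compared by 4 lists named by function, in each of which 1 gene rose and 0 fell, beside 4.17% and 1.01% of all genes tested. These counts are near those shares and say nothing particular to a list. Of 37 other replication factors, such as regulators of firing, fork protection and alternative clamp loaders, 34 were tested, with a median log2-fold change of -0.04. The one that rose was *CHTF18*, a subunit of an alternative clamp loader that acts in sister chromatid cohesion, with 13.4 and 9.83 CPM in the controls and 26.5, 36.3 and 48.2 CPM in the knockout pools. Its log2-fold change was 1.67 ± 0.38 (SE, edgeR adjusted p = 0.0392), and the call was lost in limma-voom, with library size alone and without control 2, knockout 1, knockout 2 or knockout 3 (adjusted p up to 0.127).

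Of 19 genes of nucleotide supply, 18 were tested, with a median of 0.31. *RRM1*, the large subunit of ribonucleotide reductase, which makes the deoxynucleotides that polymerases use, had 98.5 and 52.7 CPM in the controls and 361, 306 and 290 CPM in the knockout pools. All knockout pools were far above the higher control, and the log2-fold change was 2.08 ± 0.37 (SE, edgeR adjusted p = 0.0182). Without knockout 1 or knockout 3, the edgeR adjusted p was 0.0677 and 0.0519.

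Of 17 genes of the E2F, DP and RB families, 16 were tested, with a median of 0.08. *TFDP1*, which encodes DP1, a dimer partner of E2F proteins, had 69.4 and 59.9 CPM in the controls and 191, 174 and 157 CPM in the knockout pools. The knockout pools were close together and far above the controls, and the log2-fold change was 1.43 ± 0.30 (SE, edgeR adjusted p = 0.0276), with edgeR adjusted p = 0.0814, 0.0723 and 0.0805 without knockout 1, 2 or 3.

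All 23 markers of G2 and mitosis were tested, with a median of -0.13. *BIRC5*, which encodes survivin, a part of the chromosomal passenger complex, had 102 and 53.0 CPM in the controls and 297, 228 and 209 CPM in the knockout pools. The log2-fold change of *BIRC5* was 1.66 ± 0.38 (SE, edgeR adjusted p = 0.0380), and it did not pass without control 2, knockout 1, knockout 2 or knockout 3 (edgeR adjusted p up to 0.113). The summed level of the mitotic markers was 5495 and 4364 CPM in the controls and 4280, 4496 and 3928 CPM in the knockout pools, which overlapped. The paper reports moderately fewer viable cells, and more WEE1 and p-CDK1 protein, in TF-1 knockout clones than in control clones. The part of growth or of cell cycle phase in the differences between replication genes was not tested.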

How the data were processed

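RNA of 5 pools of TF-1 clones (2 control, 3 *MTSS1* knockout) was sequenced as QuantSeq 3′ mRNA libraries. The authors aligned the reads to GRCh38 with HISAT2 2.1.0, used SAMtools 1.10 to discard reads with more than 1 place, and deposited raw counts for each Ensembl gene, which are whole numbers and carry no normalization. The counting program, its annotation and its use of strand are not given in the sources used here.

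The counts were fitted with edgeR 4.0.16 under R 4.3.3. The function filterByExpr (minimum count 10) selected the genes, libraries were scaled by TMM (factors of 1.13 and 0.991 for the controls and 0.876, 1.02 and 0.996 for the knockout pools), and the quasi-likelihood F test was run on condition alone in all 5 libraries. Adjusted p-values follow Benjamini and Hochberg, across the 14391 genes tested, and a gene was called to rise or fall at an adjusted p under 0.05 and a log2-fold change beyond 1. Standard errors come from the fold change and the F statistic. Alternatives included DESeq2 1.42.0, limma-voom (limma 3.58.1) and offsets for GC content and length fitted with mgcv 1.9.3. The code was tested on simulated data. Symbols and positions are those of GENCODE release 44 on GRCh38 (27211 genes matched), and promoter sequences those of RefSeq.

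The members, the lists and the tests were chosen with earlier results of these data known. Fold changes are given for members with an unadjusted p under 0.05, for those whose groups do not overlap and for the largest change in each role, and levels for the rest. From the other lists, genes that passed both thresholds are named. *LIG1* and the neighbors *NACA* and *FADS2* were given fold changes after their values were seen. The gene pairs in the ratios followed no rule fixed in advance, and many join a higher member with a lower or overlapping one. Such a ratio restates the levels of both genes, was not tested and is no separate evidence. The labels do not say that the pools were independent cultures beyond their clones, so p-values measure the spread between these pools.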

Additional observations from a re-analysis of the deposited data

How the results depend on the processing

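Over 16 alternatives, the 15 that refitted or left out data and 1 without the fold threshold, the 21 members given a fold change by the naming rule kept their direction in every fit and their side of the threshold in 312 of 335 fits, 11 losing and 12 gaining the call. Apart from *ORC5*, these 21 members have groups that do not overlap, so leaving out a pool could hardly change their direction. Of the other 19 tested members, whose groups all overlap, 13 changed sign in some fit, among them *LIG1*, *PCNA*, *POLD1* and *POLA1*. Both results thus follow largely from the naming rule and are no measure of stability. Without 1 pool at a time, the median log2-fold change of the members lay between -0.031 and 0.15 and the number called higher between 1 and 6, that of all genes between 107 and 917 higher and between 4 and 432 lower, and the log2-fold change of *MTSS1* between -1.04 and 0.16. In the same refits, the other replication factors gave 0 to 2 higher and 0 to 1 lower genes, nucleotide supply 0 to 4 and 0 to 1, the E2F, DP and RB families 0 to 2 higher, and the G2 and mitosis markers 0 to 2 higher.

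DESeq2 called 1034 genes higher and 238 lower, with 3 higher in each of nucleotide supply, the E2F list and the mitotic list, while limma-voom called 0 of the other replication factors higher. Library size alone shifted the median of all genes from -0.03 to -0.17 and that of the members to -0.14, with 232 genes lower and 0 other replication factors higher. Without the filter on low counts, which admits more genes, 1173 genes and 7 members were higher, the medians of all genes and of the members were both 0.11, and 3 genes of nucleotide supply, 2 of the E2F list and 2 mitotic markers were higher. With at least 10 counts in every library, 2 mitotic markers were higher, and with libraries thinned to the smallest, 88 genes were lower. GC and length offsets gave 373 lower genes, 1 lower member (*MCM5*) and 1 lower gene among the other replication factors. The causes of these shifts were not tested, except that thinning lowers the counts by construction.

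The numbers 1 and 2 recur in both groups, but no source says that they mark a shared culture or day. With the replicate number as a block, 5 members (*RFC5* added, edgeR adjusted p = 0.0361) and 894 genes were higher, 200 genes were lower, the members' median was 0.15, and 2 genes of nucleotide supply were higher. The block joined with the offsets gave 240 lower genes. The difference between control 1 and 2 correlated weakly with that between knockout 1 and 2 across 14391 genes (Pearson r = 0.17). Genes are not independent replicates, so this value cannot decide whether pools with the same number shared a culture or day.

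Precision is limited by 2 control pools with the fewest counts, and members with a control mean under 10 CPM (*PRIM1*, *PRIM2*, *POLA2*, *CDC45*, *RFC5*, *GINS4*, *ORC5* and *MCM2*) rest on few control counts. *MCM2* was not tested.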
